A study of Mus musculus with 2 samples.

Results

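The spalt-like (Sall) family of zinc finger transcription factors has 4 members in the mouse, Sall1, Sall2, Sall3 and Sall4, and their RNA was followed here in the embryonic kidney. The members were found by matching the gene identifiers of the deposited tables, with the version dropped, to GENCODE symbols, which gave 4 genes with 11 annotated transcripts among the 43346 genes of the table. The rule used no measured value. The samples were kidneys of mice of strain B6NCrl at embryonic day 14.5, in 2 libraries of total RNA that the labels number as biological replicates 1 and 2 of 1 group. Each library came from the 2 kidneys of 1 pup, with collection days 2 days apart, although the sex field of the labels calls each sample a pool of males and females. No mutant, treatment or second stage was measured, so the data give levels, the forms of the transcripts and the spread between 2 libraries, which held 29718428 and 29204212 expected counts (estimated reads).

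Sall proteins bind DNA through pairs of zinc fingers spread along the protein, and repress or activate genes depending on the partners they bring. Several members recruit the nucleosome remodelling and deacetylase (NuRD) complex through a short conserved stretch at the very start of the protein. In the kidney, Sall1 is made in the metanephric mesenchyme and its nephron progenitors. It is needed there for the ureteric bud to invade and for the progenitors to persist, and mutations of human SALL1 cause Townes-Brocks syndrome, which can include kidney malformation. Sall4 is best known from embryonic stem cells and germ cells, Sall2 as a broadly made member with 2 alternative first exons, and Sall3 from the nervous system.

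The start of the coding sequence is shown first, because it separates the forms of Sall2 that the values below turn on. These are the first 36 coding bases, 5′ to 3′ as in the RNA with T for U, from the GENCODE M21 transcripts on GRCm38. Capitals mark bases identical to Sall4 at the same position.
Sall4-201: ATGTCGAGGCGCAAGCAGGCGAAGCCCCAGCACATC
Sall2-201: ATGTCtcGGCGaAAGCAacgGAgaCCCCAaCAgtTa
Sall2-202: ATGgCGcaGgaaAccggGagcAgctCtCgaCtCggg
The stretch lies in exon 1 of Sall4-201 (chromosome 2, 168766994 to 168767029), Sall2-201 (chromosome 14, 52328140 to 52328175) and Sall2-202 (chromosome 14, 52316074 to 52316109), all on the minus strand. Sall3-201, whose sequence is not printed, was identical to Sall4-201 at 31 of 36 bases. Sall2-201, which starts at the distal first exon of Sall2, matched at 24 of 36 bases. Sall2-202, which starts at the proximal first exon, matched at 13 of 36, the start codon included.

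Sall1 was the highest member, Sall2 followed, Sall3 was low and Sall4 was near the limit of these libraries. Levels are given in TPM (reads per transcript length, scaled to the same sum in each library), with replicate 1 first. Sall1 stood at 50.87 and 33.31 TPM, from 5115 and 3866 expected counts. Sall2 stood at 36.33 and 15.32 TPM, from 3316 and 1613 counts. Replicate 1 was the higher library for both genes, and Sall1 exceeded Sall2 within each library, while the lower Sall1 value lay below the higher Sall2 value. Sall3 stood at 2.39 and 1.96 TPM, from 317 and 299 counts, and its 2 values lay close together. Sall4 stood at 0.51 and 0.12 TPM, from 10 and 12 counts, so that the library with fewer counts had the higher level. As mean ± SD (n = 2) the levels were 42.1 ± 12.4 TPM for Sall1, 25.8 ± 14.9 for Sall2, 2.17 ± 0.304 for Sall3 and 0.315 ± 0.276 for Sall4. In whole tissue, fewer cells of a type and less RNA per cell cannot be told apart.

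**Figure D1:**
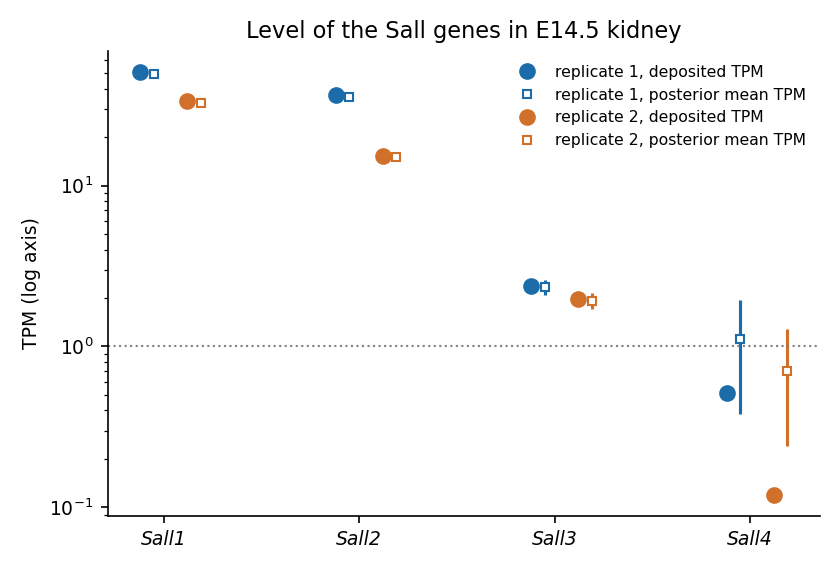
TPM of each Sall gene (vertical log axis) in replicate 1 (blue) and replicate 2 (orange), with filled points for the deposited TPM, open squares for the posterior mean TPM and lines for its deposited credibility interval; the dotted line is 1 TPM. Sall1 and Sall2 lie between 15.32 and 50.87 TPM, Sall3 near 2 TPM, and the filled points of Sall4 fall below 1 TPM with wide intervals.

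With detection set at 1 TPM in both libraries, 3 of the 4 members were detected, against 59.0% of 21474 protein-coding genes. At 2 TPM in both libraries 2 were, since Sall3 was at 1.96 TPM in replicate 2. The share of all protein-coding genes at that floor is not given here. Sall1 was above 85.4% and 82.4% of protein-coding genes, and Sall2 above 80.2% and 70.2%. Sall3 was above 44.7% and 45.0%, and Sall4 above 35.0% and 28.6%. Among 394 genes with a numbered Zfp symbol, most of them zinc finger genes, the median level was 8.89 and 6.72 TPM. Sall1 exceeded 95.4% and 93.9% of these and Sall2 91.6% and 77.9%, whereas Sall3 exceeded 17.3% and 19.5% and Sall4 8.88% and 5.84%. The members thus stood on both sides of the usual level of genes of this kind, with Sall1 and Sall2 among the higher ones in both libraries.

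The order Sall1, Sall2, Sall3, Sall4 was the same in both libraries, though not every step was of one size. Sall1 exceeded Sall2 1.40-fold in replicate 1 and 2.17-fold in replicate 2 (mean 1.79 ± 0.547, SD, n = 2). Within each library the deposited intervals of the 2 genes lay apart, at 48.1 to 50.8 against 34.1 to 36.5 TPM in replicate 1 and 31.5 to 33.5 against 14.2 to 15.7 TPM in replicate 2. Across libraries the values of these neighbours overlap. Sall2 exceeded Sall3 15.2-fold and 7.82-fold, with no overlap. Sall3 exceeded Sall4 4.69-fold and 16.3-fold on the deposited TPM, also with no overlap. Of the summed TPM of the family, 90.1 and 50.71, Sall1 held 56.5% and 65.7%, Sall2 40.3% and 30.2%, Sall3 2.65% and 3.87%, and Sall4 0.566% and 0.237%. The balance between the 2 main members therefore shifted between libraries. The ratio of Sall1 to Sall2 counts in replicate 1 was 0.644 times that in replicate 2 (conditional 95% interval 0.598 to 0.693, counting error only), a comparison of 2 libraries and not of conditions.

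Sall1 (ENSMUSG00000031665.6) spans chromosome 8, 89027235 to 89044162, on the minus strand of GRCm38. The deposited tables hold 1 transcript of it, Sall1-201, with 4 exons, 3969 coding nt and a length of 5252 nt, so all of its counts fell on this form. Its large exon 3 (89029944 to 89033398, 3455 nt, all coding) makes up most of the coding sequence. The RefSeq annotation lists further start sites of Sall1, which cannot be resolved with 1 transcript in the tables. No other annotated gene overlaps Sall1. The nearest within 5000 nt, the microRNA gene Mir8110, lies 2403 nt beyond its 3′ end and had 0 counts in both libraries. Its annotated span (89024735 to 89024831) is shorter than the 200 nt minimum of the RNA used, so these counts give no measure of its level.

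Sall2 (ENSMUSG00000049532.9) spans chromosome 14, 52311172 to 52328762, on the minus strand, with 2 annotated transcripts that differ in their first exon. Nearly all of its RNA was assigned to the form that starts at the proximal exon. Sall2-202 held 99.24% of the gene's TPM in replicate 1 and 100% in replicate 2 (99.6% ± 0.537, SD, n = 2), at 36.06 and 15.32 TPM. Sall2-201, the distal form, was at 0.28 TPM in replicate 1 and listed at 0 TPM in replicate 2, from 27.39 and 0 counts. Its deposited credibility intervals reached up to 0.759 and 0.219 TPM. By the posterior mean estimate the proximal form held 98.94% and 99.51%. A single transcript at 99% or more in both libraries was seen in 4.40% of 7404 protein-coding genes with at least 2 transcripts and 5 TPM in both libraries.

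The estimate rests on the parts that the forms do not share. Exon 1 of Sall2-201 (52328103 to 52328762, 660 nt, of which 73 coding) and exon 1 of Sall2-202 (52316043 to 52316323, 281 nt, of which 67 coding) are the first exons, and exon 2 with 2939 coding nt is common to both. The coding sequences are 3012 and 3006 nt long, so the forms encode proteins of nearly equal length that begin differently. In the sequences above, the form that carried nearly all Sall2 RNA is the one whose start matches Sall4 at fewer bases. The tables give transcript totals and not reads per exon. The length of Sall2-201 is 5152 nt in the tables and 5147 nt in the reference used for its exons.

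The sequences upstream of the 2 first exons of Sall2 are shown because the forms arise from different start sites. They are from RefSeq on GRCm38.p6, minus strand, 5′ to 3′, ending at the base before the first annotated base of the transcript, with capitals marking CG dinucleotides. That of Sall2-202 is chr14:52316324-52316573 and that of Sall2-201, cut so as to hold no transcribed base, is chr14:52328763-52328920.
Sall2-202: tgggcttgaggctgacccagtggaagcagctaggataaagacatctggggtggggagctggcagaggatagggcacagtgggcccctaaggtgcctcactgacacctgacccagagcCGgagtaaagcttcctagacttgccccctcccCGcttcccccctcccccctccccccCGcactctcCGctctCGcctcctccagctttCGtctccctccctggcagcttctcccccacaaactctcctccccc
Sall2-201: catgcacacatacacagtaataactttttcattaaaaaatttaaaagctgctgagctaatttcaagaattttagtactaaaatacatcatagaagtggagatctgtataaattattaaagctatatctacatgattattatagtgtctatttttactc
Over the 250 bases before each RefSeq start site, the window of Sall2-202 was 64.4% G or C with 6 CG dinucleotides. The window of Sall2-201, which is counted from a RefSeq start site inside the GENCODE first exon, was 28.0% G or C with 0. The median of 32851 such windows was 52.4% with 6, and 7.87% of windows held as few CG dinucleotides as that of Sall2-201. The letters TATAAA, on either strand, were present in the window of Sall2-201 and not in that of Sall2-202, against 12.4% of all windows. GGGCGG, on either strand, was in neither window, against 32.7% of all.

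**Figure D2:**
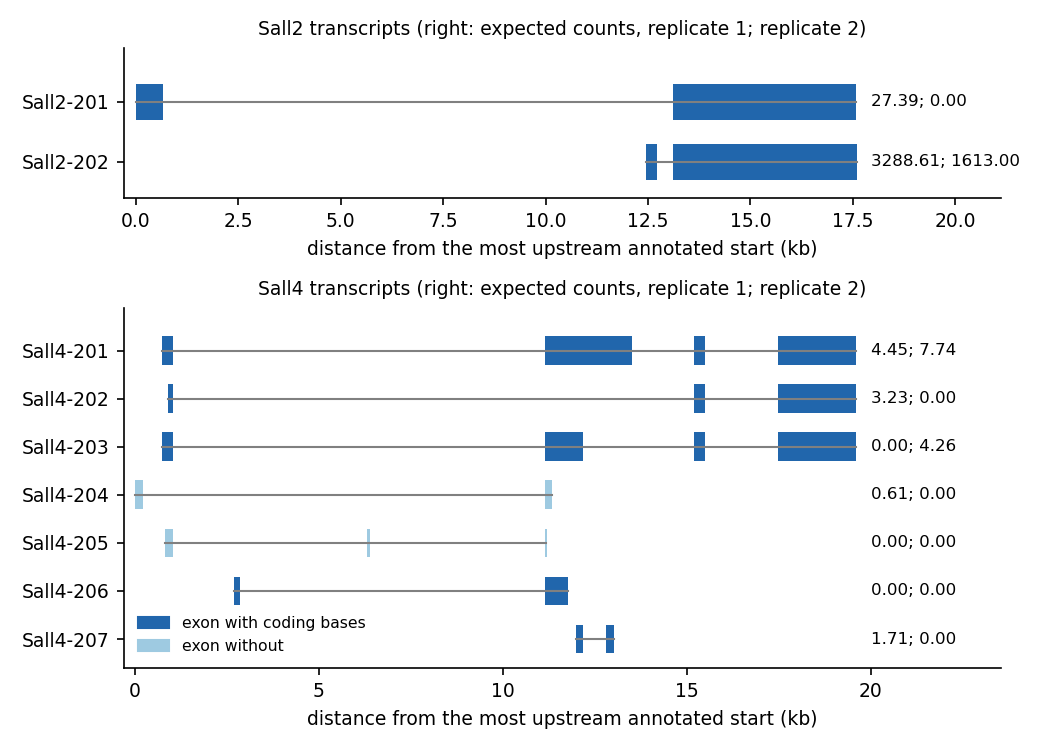
Annotated transcripts of Sall2 and Sall4, drawn 5′ to 3′ with the distance in kb from the most upstream start on the horizontal axis; boxes are exons (dark with coding bases, light without), lines are introns, and the numbers at the right are the expected counts in replicates 1 and 2. The counts of Sall2 fall on the form with the proximal first exon, at 3288.61 and 1613, while the 10 and 12 counts of Sall4 are spread differently in each library.

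Sall3 (ENSMUSG00000024565.8) spans chromosome 18, 80966376 to 80986771, on the minus strand. The tables hold its coding transcript Sall3-201, with 4 exons and 3744 coding nt, at a length of 6886 nt against 7079 nt in the reference. All 317 and 299 counts fell on it. The deposited interval of its level was 2.08 to 2.59 TPM in replicate 1 and 1.70 to 2.14 TPM in replicate 2. The intervals overlap in part, with replicate 1 the higher, which does not show the levels to be equal. Gm27239, a noncoding gene on the opposite strand that begins 684 nt from the start of Sall3, had 3 counts in each library.

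Sall4 (ENSMUSG00000027547.13) spans chromosome 2, 168748332 to 168767943, on the minus strand, and has 7 annotated transcripts. Its 10 and 12 counts have exact Poisson 95% intervals of 4.8 to 18.4 and 6.2 to 21.0, so the libraries did not differ in counts beyond counting error. The deposited TPM nevertheless differed 4.25-fold, in the other direction. The effective length that divides the count was 1007.68 nt in replicate 1 and 4402.23 nt in replicate 2. The few reads were divided differently among the transcripts. In replicate 1 the 393-nt fragment Sall4-207 took 58.64% of the gene's TPM from 1.71 counts. In replicate 2 the full-length Sall4-201 took 57.07% from 7.74 counts and Sall4-203, which lacks part of the large second exon, 42.93% from 4.26 counts. Sall4-202, which lacks that exon altogether, held 13.36% in replicate 1 and 0% in replicate 2. By these shares of TPM, which weigh reads on short forms more, the leading transcript differed between the libraries. By expected counts it did not, since Sall4-201 held the most in both, at 4.45 in replicate 1 and 7.74 in replicate 2. By the posterior mean the same 3 short forms led in both, Sall4-207 with 38.52% and 20.95%, Sall4-204 with 19.9% and 19.01% and Sall4-205 with 19.64% and 26.89%, the last with 0 expected counts in each library.

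Divided by the effective length of Sall4-201 in both libraries, 4974 nt, the counts of Sall4 gave 0.103 TPM in replicate 1 (0.0494 to 0.189, counting error only) and 0.107 TPM in replicate 2 (0.0554 to 0.187). On this scale, chosen after the values were seen, the 2 libraries were alike and Sall3 exceeded Sall4 20.8-fold on average. The deposited posterior mean estimates of Sall4 were higher, at 1.11 and 0.70 TPM, and by these Sall3 exceeded Sall4 2.41-fold on average. The noncoding gene Gm14261, which overlaps the start of Sall4 on the opposite strand (168766143 to 168768108, 1801 nt shared), had 0 counts in both libraries.

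**Figure D3:**
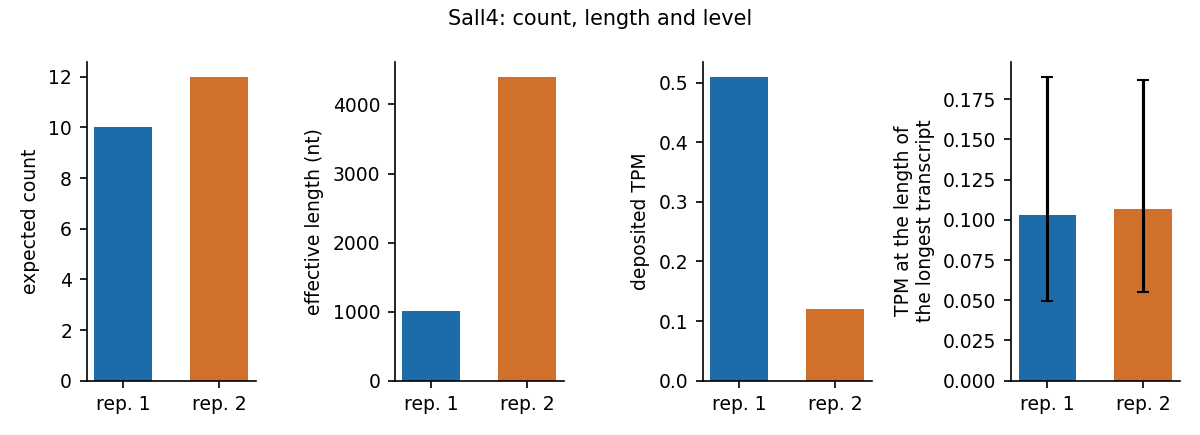
Sall4 in replicate 1 (blue) and replicate 2 (orange): expected count, effective length in nt, deposited TPM, and TPM with the count divided by the effective length of the longest transcript; error bars are exact Poisson 95% intervals. Counts are 10 and 12, deposited TPM 0.51 and 0.12, and the levels at 1 fixed length 0.103 and 0.107 TPM.

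No reads of a Sall gene were divided with another gene in the deposited estimate. The deposited expected count of each member was a whole number in both libraries, and its deposited posterior standard deviation was 0 counts. This held although the zinc finger stretches of the members resemble each other.

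Sall1 and Sall2 were higher in replicate 1, and most long genes were too. The log2 ratio of TPM + 1, replicate 1 over replicate 2, was 1.19 for Sall2, 0.60 for Sall1, 0.43 for Sall4 and 0.20 for Sall3. Over 12669 protein-coding genes at 1 TPM in both libraries its median was 0.28, and over 5 groups of equal size by effective length it went from −0.0864 in the shortest genes to 0.55 in the longest (3884 nt or more). Sall1, Sall2 and Sall3 belong to the longest group, in which 92.7% of 2534 genes were higher in replicate 1. Sall1 lay 0.0448 above the median of that group, with 46.0% of its genes at or above it. Sall2 lay 0.64 above the median, with 3.39% at or above it, and Sall3 0.36 below it, with 82.2% at or above it. The part of length in the difference of any member was not tested.

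Of the members with at least 5 TPM in the higher library, Sall1 and Sall2, only Sall2 reached a log2 ratio of 1. So did 4.68% of 10696 protein-coding genes at that level in either direction, and 4.22% with replicate 1 higher. With 1 library on each side this is a difference between 2 libraries, with no test. On counts, Sall2 was 2.01-fold higher in replicate 1 per count on genes (95% interval 1.89 to 2.13, counting error only), Sall1 1.29-fold (1.24 to 1.35), Sall3 1.04-fold (0.881 to 1.22) and Sall4 0.814-fold (0.315 to 2.05). The intervals of Sall3 and Sall4 include equality. Scaling the counts with TMM factors moved the median of all genes to 0.0227 and gave Sall2 a log2 ratio of 0.93, below 1, and Sall1 0.29. Relative to the median of all genes, Sall2 was at 0.91 on both scales. Sall3 was at −0.0242 with TMM factors, so its direction depends on the scaling. Sall4 was at −0.37 on TMM-scaled counts, which are not divided by the effective length that differed between the libraries.

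**Figure D4:**
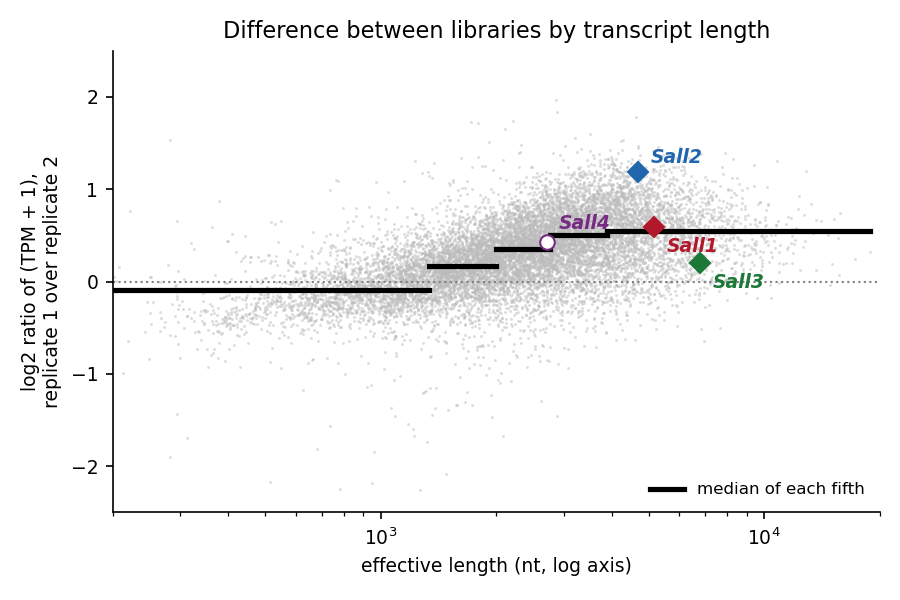
Log2 ratio of TPM + 1, replicate 1 over replicate 2 (vertical axis), against effective length in nt (horizontal log axis) for 12669 protein-coding genes at 1 TPM in both libraries (grey, 12 outside the axes), with the median of each of 5 length groups as black bars and the Sall genes in colour (Sall4, below 1 TPM, as an open circle). Sall1 sits near the median of the longest group, Sall2 above it at 1.19 and Sall3 below it at 0.20.

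The regulators that share the nephron progenitor with Sall1 were nearly all detected. Of 16 such genes 15 were detected, against 59.0% of protein-coding genes, with a median of 33.0 and 25.9 TPM, both below Sall1 in the same library. The highest were Cited1, a co-activator of uncommitted progenitors, at 136 ± 6.92 TPM (SD, n = 2), the homeobox gene Uncx at 115 ± 3.17 TPM, and then the zinc finger gene Wt1 at 105 ± 33.4 TPM. Among detected members of the list the median log2 ratio between libraries was 0.34, beside 0.60 for Sall1 and 1.19 for Sall2. Of the 16, 12 were higher in replicate 1, beside 76.3% of the 12669 genes.

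NuRD subunits, through which several Sall proteins repress, were detected for 14 of 15 genes, against the same 59.0%, with a median of 46.3 and 50.3 TPM. The histone-binding subunits Rbbp7 and Rbbp4 led at 375 ± 50.3 and 323 ± 21.7 TPM, followed by the deacetylase Hdac2 at 211 ± 22.7 TPM. Chd5, a remodelling ATPase best known from neurons, was at 0.02 and 0.03 TPM.

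The pluripotency genes with which Sall4 acts in embryonic stem cells were low. One of 11 was detected, Klf4 at 2.98 and 2.96 TPM, against 59.0% of protein-coding genes. Lin28b, an inhibitor of let-7 microRNAs, was at 1.28 and 0.84 TPM, and Utf1 at 0.18 and 0.08 TPM. For Lin28a, Zfp42 and Tdgf1 each library listed 0 counts, a value that up to 3 expected reads would allow. Germ cells also make Sall4, and 3 of 6 listed markers of them were detected, a share near the 59.0% of all protein-coding genes, with a summed level of 16.2 and 8.79 TPM. Kit, which other cell types also make, gave 11.92 and 4.86 TPM of that, Nanos3 2.19 and 2.39, and Dnd1 1.41 and 1.31. Of the more defining markers, Dazl and Dppa3 had 0 counts, while Ddx4, a germ cell RNA helicase gene, had 37 and 14 counts (0.69 and 0.23 TPM), more than Sall4 in both libraries. The part of such cells in the Sall4 counts was not tested.

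Genes linked to Sall2 in studies of the cell cycle and cell death were all detected, 7 of 7 against 59.0% of protein-coding genes, with a median of 68.3 and 67.0 TPM. The cyclin gene Ccnd1 was at 197 ± 53.3 TPM, Myc at 87.9 ± 3.96 TPM and the cyclin gene Ccne1 at 72.9 ± 8.32 TPM, while Pmaip1, a pro-apoptotic gene, was lowest at 1.47 ± 0.516 TPM. Of the 7, 6 were higher in replicate 1, beside 76.3% of the 12669 genes. DNA methyltransferases, one of which is a reported partner of Sall3, were at 65.11 and 42.9 TPM for Dnmt3a, 55.34 and 38.02 for Dnmt1 and 15.88 and 9.95 for Dnmt3b. All 3 were higher than Sall3 in both libraries.

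By level alone, over the 2 libraries and the 52 genes of the progenitor, NuRD, pluripotency, Sall2-linked and methyltransferase lists, with the lists of cell type markers left out, the genes nearest to Sall1 were Pax2 at 44.12 and 32.42 TPM (distance 0.205 in log2 units of TPM + 1) and Dnmt1 (0.221). Nearest to Sall2 was Itga8, an integrin subunit of the progenitor mesenchyme, at 37.86 and 15.97 TPM (0.0808), followed by Hoxa11 at 28.12 and 20.72 TPM (0.546). Within these 5 lists Sall3 lay nearest to Klf4 (0.479) and Hoxc11 at 2.29 and 3.28 TPM (0.534). Within the same lists and on its deposited TPM, Sall4 lay nearest to Utf1 (0.360) and Esrrb at 0.11 TPM in both (0.444). With the length of Sall4 held fixed, its distances were not computed. Itga8 shared with Sall2 both the level and the size of the difference between libraries. With 2 libraries this is nearness of level and carries no further weight.

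The tissue carried its defining markers, with 10 of 10 kidney compartment genes detected against 59.0% of protein-coding genes. By mean level they ran from Calb1 of the ureteric epithelium at 166 ± 2.47 TPM to Nphs1 of podocytes at 2.61 ± 0.0566 TPM. These 2 differed little between libraries, but other markers did not. Slc34a1 was at 21.33 and 7.97 TPM and Slc12a1 at 16.83 and 6.0, while Foxd1 was higher in replicate 2, at 12.38 and 18.28. Of the 10, 7 were higher in replicate 1, beside 76.3% of the 12669 genes. Markers of other cell types, some of them known for a Sall gene, were also looked for. Microglia, the macrophages of the brain, are known for Sall1. Of 6 genes that mark them, 4 were detected, also near the 59.0% of all protein-coding genes, with summed levels of 54.5 and 45.2 TPM. Tmem119 was at 16.2 ± 3.36 TPM, the macrophage receptor Csf1r was at 6.97 ± 3.17 TPM, and Siglech was at 0.10 and 0.06 TPM. Neuron markers, relevant to Sall3, were detected for 2 of 6 genes, below that share, with summed levels of 19.7 and 16.6 TPM, of which Elavl4 gave 11.7 ± 2.24 TPM and Stmn2, a tubulin-binding protein gene, 5.07 ± 0.587 TPM. Tubb3 was at 1.54 and 0.83 TPM. Adrenal cortex markers were detected for 1 of 6, also below it. This was Mc2r at 3.10 ± 0.127 TPM, with Star at 0.945 ± 0.0354 and Cyp11a1 at 0.515 ± 0.233 TPM and Hsd3b1 at 0 counts. The part of these cell types in the Sall levels was not tested.

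**Figure D5:**
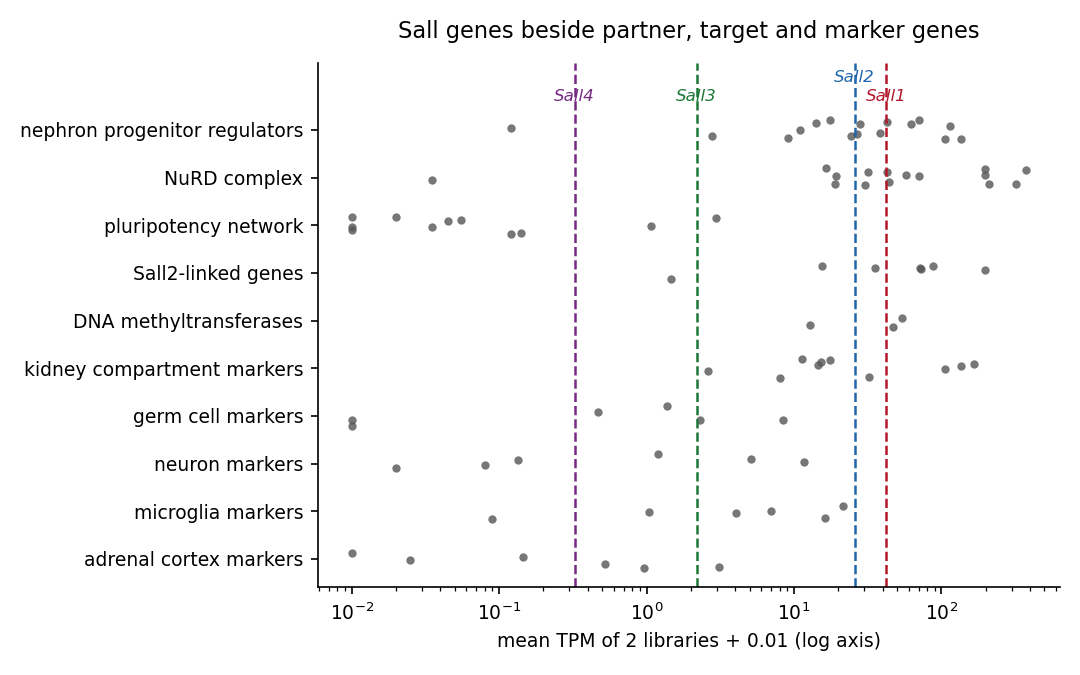
Mean TPM over the 2 libraries, plus 0.01, on a horizontal log axis for each gene (grey points, spread vertically for visibility) of 10 lists, with dashed lines at the mean levels of the Sall genes. The lines of Sall1 and Sall2 run through the progenitor and NuRD lists, and that of Sall3 lies below most genes of both. That of Sall4, drawn at its mean deposited TPM, lies above 9 of the 11 pluripotency genes. With the length held fixed, Sall4 was at 0.103 and 0.107 TPM, below the means of Utf1 (0.13) and Esrrb (0.11).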

How the data were processed

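Total RNA longer than 200 nt, 10 ng per library, with spike-ins, was sequenced by a Smart-seq method from 2 libraries of 1 group, per the labels. The deposited tables use mm10 with GENCODE M4, per the deposited file descriptions. For the aligner, the quantification tool and the use of strand, nothing is given in the sources used here. The deposited expected counts are estimated reads and need not be whole. The deposited TPM are scaled to the same sum over all features, spike-ins included, and the deposited FPKM to length and depth. The deposited bounds of credibility intervals, a signal on the TPM scale, belong to the posterior mean and have no stated level, and the deposited isoform percent divides the TPM of a gene among its transcripts.

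Depth was 29718428 and 29204212 expected counts. Of 43346 gene IDs, 42462 matched GENCODE M21 (same assembly), which gave symbols, coordinates and exons. The rows that name no gene (96 spike-ins and 26249 others) stayed out of all comparisons. Of the counts, 4.34% and 4.95% fell on spike-ins. With 2 libraries of 1 group no gene was tested. Ratios used log2(TPM + 1), which understates low genes. Intervals of count ratios are exact conditional binomial, at 95%, and cover counting error only. The labels give 2 pups, with no molecular identifiers used here. TMM factors came from edgeR 4.0.16 and median-of-ratios factors from DESeq2 1.42.0 on rounded counts. Both were checked on simulated libraries without the shift by gene length seen here, so the check does not cover that shift. Other calculations used Python 3.11.15 and scipy 1.17.1. The alternatives were other estimates, scalings, pseudocounts, floors and each replicate alone. The members and lists were chosen with earlier results of these data known. Named genes are the members, the 3 highest and the lowest of each list, the 2 nearest to each member and overlapping or neighbouring genes, with markers at 0 counts and Nanos3, Dnd1, Ddx4, Slc34a1, Slc12a1, Foxd1 and Dnmt genes named besides after their values were seen. A few genes and 1 sequence that this rule would name are not reported here.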

Additional observations from a re-analysis of the deposited data

How the results depend on the processing

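Of 127 values recomputed under another setting, 113 kept their direction and moved by less than the spread between replicates or genes, or, for counts of genes, by at most 1.5 times. Part of the 113 was fixed in advance, because leaving out 1 of 2 replicates always moves a mean by less than their SD. For levels, ratios and shares that setting is therefore no check. The values outside the 113 were mostly of Sall4. Its mean level was 0.905 TPM by the posterior mean, its share of the family 0.161% on counts and 1.33% by the posterior mean, and Sall3 exceeded it 10.5-fold on deposited TPM, 2.41-fold by the posterior mean and 20.8-fold with the length held fixed, which was added after the data were seen. The log2 ratio of Sall4 between libraries was 1.47 with a pseudocount of 0.1, −0.372 with TMM factors, −0.344 with median-of-ratios factors and −0.00522 with the length held fixed. Sall3 changed sign with TMM factors, at −0.0242, stood at 2.55 TPM on average after mitochondrial, haemoglobin and spike-in features were left out, and held 4.39% of the family on counts. Detected pluripotency genes numbered 2 at a floor of 0.5 TPM and 1 to 2 with each replicate left out, and adrenal genes 2 at 0.5 TPM. All 4 members were detected at 10 counts in both libraries, Sall4 with exactly 10 in replicate 1, and 2 at 2 TPM, where the call of Sall3 was lost. The share of all protein-coding genes that pass the floors of 0.5 TPM, 2 TPM and 10 counts is not given here. The causes of these changes were not tested, except that holding the length fixed removes the difference in effective length. With replicate 2 or 1 left out, Sall1 stood at 33.3 to 50.9 TPM, Sall2 at 15.3 to 36.3 TPM, and Sall2-202 held 99.2 to 100% of Sall2. No paired analysis was possible because there was 1 group. Counts limit Sall4, whose level and transcripts are not resolved at 10 and 12 reads, and the distal form of Sall2, at 27.39 and 0 counts.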
